A study of Rattus norvegicus with 50 samples.

Results

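Cxcl1, Cxcl2, S100a8, S100a9 and Padi4, a pair of neutrophil-attracting chemokines and 3 genes read as neutrophil markers, were followed in rat liver after galactosamine, nevirapine or both. They were chosen by symbol, and all 5 were found among the 14217 genes measured. Each had 1 probe set with 1 gene symbol, so no choice between probe sets was needed. RNA from 50 livers was measured on 1 Affymetrix array per rat in 17 groups of 3 rats, except galactosamine at 48 h with 2 rats. All rats were female Brown Norway rats (Bn/Crl strain 091, MHC haplotype RT1n) aged 9 to 11 weeks. Combination rats had 7 days of oral nevirapine (150, then 100, then 75 mg/kg), a single intraperitoneal 750 mg/kg dose of galactosamine and continued nevirapine, and were taken 3 h, 24 h, 48 h and 8 d after galactosamine. Galactosamine rats had the same single injection with sham oral dosing and were taken at the same times. Nevirapine rats had the oral drug with a sham injection and were taken 3 h, 24 h, 48 h and 15 d after the first dose, so their days of dosing at the first 3 times differ from those of combination rats. Vehicle rats had sham dosing by both routes and were taken at 3 h, 24 h, 48 h, 8 d and 15 d. The last oral or sham oral dose came 2 h before sampling, except 5 h before it in the combination, galactosamine and vehicle groups at 3 h and 3 h before it in the nevirapine group at 3 h. Because combination livers at 8 d came after 15 d of nevirapine, their vehicle is the 15 d group. The study asked what happens in the days over which the drug pair, but neither drug alone, led to fibrosis.

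Galactosamine is an amino sugar that hepatocytes take up and that injures them, and nevirapine is an antiretroviral drug known for liver reactions in some patients. Cxcl1 and Cxcl2 are small secreted proteins that bind the receptor CXCR2 on neutrophils and draw them out of the blood, and in liver they can be made by hepatocytes, Kupffer cells and endothelial cells. S100a8 and S100a9 are calcium-binding proteins that pair as calprotectin, which is abundant in neutrophils and monocytes, and Padi4 is an enzyme that converts arginine to citrulline in histones when neutrophils release extracellular traps. In whole liver, fewer cells of a type and less RNA per cell cannot be told apart.

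Cxcl1 and Cxcl2 lie near each other on chromosome 14, and S100a8 and S100a9 near each other on chromosome 2, in the RefSeq annotation of GRCr8. The promoters of both chemokines, from 250 bases before to 50 bases after the annotated start, are shown because Cxcl1 rose 3 h after the drug pair while Cxcl2 did not pass the test there. They are from RefSeq (GRCr8) and read 5′ to 3′ along the gene, and capitals mark matches, on either strand, to a form of the NF-kappaB motif written as GGG, any 2 bases, then TTTCC.
Rat Cxcl1 promoter, chr14:17479272-17479571, strand -: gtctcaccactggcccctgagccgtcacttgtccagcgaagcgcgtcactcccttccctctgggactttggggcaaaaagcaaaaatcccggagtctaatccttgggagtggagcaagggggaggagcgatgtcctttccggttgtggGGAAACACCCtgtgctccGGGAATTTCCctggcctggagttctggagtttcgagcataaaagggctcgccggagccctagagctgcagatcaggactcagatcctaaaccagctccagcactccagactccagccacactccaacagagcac
Rat Cxcl2 promoter, chr14:17467206-17467505, strand -: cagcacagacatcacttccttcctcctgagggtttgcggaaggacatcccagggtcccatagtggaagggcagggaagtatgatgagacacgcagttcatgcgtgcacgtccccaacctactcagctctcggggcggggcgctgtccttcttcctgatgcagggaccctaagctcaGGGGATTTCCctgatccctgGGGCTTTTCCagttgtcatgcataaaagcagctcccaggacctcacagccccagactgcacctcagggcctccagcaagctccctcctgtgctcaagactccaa
The Cxcl1 promoter held the motif at positions -84 to -75 on the gene strand and -102 to -93 on the other strand. In the Cxcl2 promoter it stood at -74 to -65 and at -54 to -45, both on the gene strand. It was present in 512 of 33469 rat promoters of the same length (1.53%). Of the 5 genes 3 had a promoter in the table, and in that of S100a9 no match was present. The other motifs searched, on both strands, were a looser form that holds the first (GGG, any 3 bases, then TTCC, in 5.37% of promoters), TATAAA (14.22%), TGANTCA (7.33%), CCAAT (37.49%), TTNNGNAA (41.32%) and GGAA (95.79%). TATAAA was found in the S100a9 promoter at -42 to -37 and in neither chemokine promoter. These matches describe letters and not bound sites.

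The 50 arrays had medians of 4.95 to 5.09 on the log2 scale and correlated with the other rats of their group at 0.979 to 0.997. The labelled tissue was borne out by its markers, since the mean log2 signal of 10 hepatocyte markers was 12.52 or more in every rat at 3 h, 24 h and 48 h. A difference between 3′ and 5′ GAPDH signals, a sign of RNA degradation, ranged from 0.0089 to 0.86, and its mean at 3 h was 0.216 in combination livers and 0.170 in galactosamine livers, against 0.400 in vehicle livers. With this difference as a covariate, 23 of the 24 calls of the members held, the exception being S100a8 in combination livers at 48 h (adjusted p = 0.07803). A level of 4.37, the highest mean among 27 bacterial control probe sets, was taken as background. A group whose mean does not exceed it has only an upper bound, and where both groups are below it no fold change is given. Tests are from limma, with Benjamini-Hochberg adjustment over 14217 genes and a threshold of 0.05, and differences are on the log2 scale with their standard errors. Overlap or separation of the rats of 2 groups is description only, since the share of all genes whose rats do not overlap is not given. Nothing in the labels pairs rats or names a batch, and a batch that they do not name could not be checked. The p-values rest on 1 spread between rats per gene, pooled over all 17 groups, and not on that of the groups compared. For Cxcl1 the group SD ran from 0.157 (vehicle at 8 d) to 1.83 (combination at 24 h).

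Cxcl1 was the member with the highest signals, above background in 48 of 50 rats and in the mean of every group. At 3 h it was 9.57, 7.40 and 10.49 in combination livers (rat61, rat62 and rat63), 8.25, 7.87 and 8.73 in galactosamine livers (rat16, rat17 and rat18), and 6.86, 3.998 and 7.33 in vehicle livers (rat1, rat2 and rat3). Every treated liver was above every vehicle liver, though rat62 exceeded the highest vehicle rat by little, and the 2 treated groups overlapped. The chemokine rose 8.51-fold in combination livers (log2 difference 3.09 ± 0.80, adjusted p = 0.003016) and 4.67-fold in galactosamine livers (2.22 ± 0.80, adjusted p = 0.02965). Both results lean on rat2, the lowest vehicle liver. Without it the difference was 2.06 (adjusted p = 0.06352) for the combination and 1.19 (adjusted p = 0.3209) for galactosamine. The galactosamine call was also lost without rat16 (0.06229) or rat18 (0.0974), and the combination call in a fit of those 2 groups alone (0.06951). Combination minus galactosamine livers gave 0.87 ± 0.80 (95% interval -0.76 to 2.49, adjusted p = 0.4963), an interval that holds both no difference and one of several-fold.

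At 24 h Cxcl1 did not differ from vehicle past the threshold in either treatment. It was 4.17, 5.10 and 7.70 in combination livers and 5.32, 5.62 and 7.71 in galactosamine livers, against 6.63, 4.42 and 5.80 in vehicle livers. One liver of each treatment (rat79 of the combination and rat24 of galactosamine) was above all vehicle rats, rat67 of the combination was below them and the others lay among them. At 48 h the signals were 4.43, 7.11 and 6.58 in combination livers and 4.91 and 5.34 in galactosamine livers, against 5.84, 7.48 and 5.54 in vehicle livers. At 8 d they were 5.90, 4.86 and 5.67 in combination livers and 5.85, 5.28 and 5.58 in galactosamine livers, while vehicle livers had 6.83, 6.69 and 6.52 at 8 d and 5.84, 5.97 and 6.68 at 15 d. None of these later differences from vehicle passed the test, although both galactosamine groups lay wholly below their vehicle rats. From 3 h to 24 h Cxcl1 fell in combination livers by 3.49 on the log2 scale (adjusted p = 0.0004628), and the change in the effect on vehicle over that step was -3.05 (adjusted p = 0.0395). In galactosamine livers it fell by 2.07 (adjusted p = 0.02233), but the change in the effect on vehicle did not pass (adjusted p = 0.2383), and the fall was lost without rat18 (0.07446), rat22 (0.1101) or rat23 (0.08126). In the order of the 17 groups the combination and galactosamine livers at 3 h came first and second, with overlapping rats. A step of 1.61 without overlap then separated galactosamine livers at 3 h from vehicle at 8 d, and all 14 remaining pairs of neighbours overlapped. The combination at 3 h was not apart from all other groups. Its rat62 (7.40) lay below rat11 of vehicle at 48 h (7.48), rat40 of nevirapine at 48 h (7.71), and rat24 and rat79 at 24 h.

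**Figure D1:**
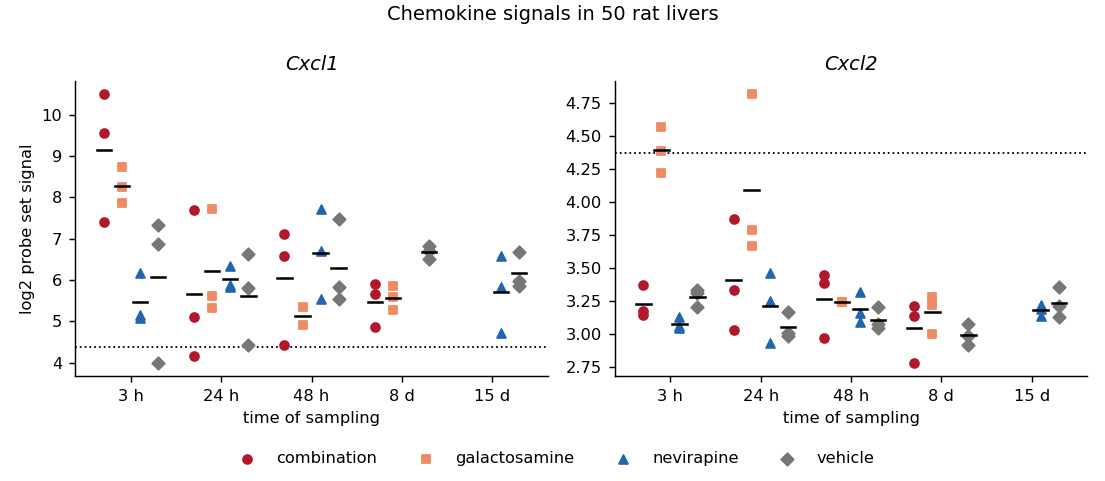
Log2 probe set signal of Cxcl1 and Cxcl2 in each of 50 livers by time of sampling, with black bars for group means and a dotted line at the background level of 4.37 (each gene has its own axis). Cxcl1 is high in combination and galactosamine livers at 3 h, while Cxcl2 is high in galactosamine livers at 3 h and 24 h and lies around the vehicle livers in the combination at 3 h.

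Cxcl2 rose at 3 h in galactosamine livers and did not pass the test in combination livers. At that time it was 3.18, 3.38 and 3.14 in combination livers and 4.57, 4.23 and 4.39 in galactosamine livers, against 3.31, 3.34 and 3.21 in vehicle livers. All galactosamine livers were above all others, and the combination livers lay around the vehicle livers. Galactosamine alone gave the only group mean above background (4.40 ± 0.17, SD, n = 3), against 3.29 ± 0.07 in vehicle livers (n = 3), a measured difference of 1.11 ± 0.18 (adjusted p = 7.215e-06). As the vehicle level is a bound, the fold was at least 1.02. The combination differed from vehicle by -0.05 (95% interval -0.42 to 0.32, adjusted p = 0.8507). Combination minus galactosamine livers was -1.16 ± 0.18 (adjusted p = 1.538e-05). Both the rise and this difference kept their calls without any single rat and in every other setting tried. The 3 h vehicle rats serve both treatments, and the difference between treatments is free of them.

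At 24 h the Cxcl2 signal was 3.04, 3.33 and 3.87 in combination livers and 3.67, 3.79 and 4.82 in galactosamine livers, against 3.17, 2.99 and 3.01 in vehicle livers. All 3 galactosamine livers were above the vehicle livers, rat24 by most, and the highest combination liver reached into their range. The galactosamine difference was 1.04 ± 0.18 (adjusted p = 6.164e-06) and held without each rat, with both means below background. Combination minus vehicle was 0.36 (adjusted p = 0.1276), and combination minus galactosamine was -0.68 ± 0.18 (adjusted p = 0.003002). That last call was lost without rat24 (-0.32, adjusted p = 0.1304), without rat67 (-0.49, adjusted p = 0.05234) and with only those 2 groups fitted (0.2017). By 48 h Cxcl2 was near the vehicle livers, at 2.97, 3.45 and 3.39 in combination livers and 3.24 in both galactosamine livers, against 3.08, 3.05 and 3.21 in vehicle livers. The fall in galactosamine livers between 24 h and 48 h was 0.85 on the log2 scale (adjusted p = 0.0006506), and was not called in a fit of the 2 groups alone (0.0994). Over all times, Cxcl2 exceeded background in 3 rats, which are rat16 and rat18 at 3 h and rat24 at 24 h, all given galactosamine alone. No neighbouring pair in its order of 17 groups was free of overlap.

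S100a9 and S100a8 were higher after the combination at 3 h than after galactosamine at that time. S100a9 was 6.79, 4.65 and 5.61 in combination livers and 4.37, 4.33 and 4.53 in galactosamine livers, against 3.76, 3.78 and 3.99 in vehicle livers. The 3 groups did not overlap, with rat61 of the combination highest by more than 1 log2 unit. S100a9 rose at least 2.49-fold in combination livers (group means 5.69 and 3.84, difference 1.84 ± 0.34, adjusted p = 6.754e-05), a call kept without each rat and in each other setting. The galactosamine difference was 0.57 ± 0.34 (adjusted p = 0.217), but it was called in a fit of galactosamine and vehicle livers alone (adjusted p = 0.00259). Between treatments the combination was 2.42-fold higher (1.27 ± 0.34, adjusted p = 0.007541). Without rat61 the difference between treatments was 0.72 (adjusted p = 0.1235), and in a fit of these 2 groups its adjusted p was 0.146.

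S100a8, whose product pairs with that of S100a9, was dim throughout. Its signal exceeded background in 1 rat, rat61, and in no group mean, so its differences are of measured signals only. At 3 h it was 5.22, 3.13 and 3.15 in combination livers and 2.57, 2.59 and 2.49 in galactosamine livers, against 2.38, 2.20 and 2.44 in vehicle livers. All 3 groups were apart, and the 2 combination rats other than rat61 were close to each other. Combination minus vehicle was 1.496 ± 0.28 (adjusted p = 9.127e-05) and combination minus galactosamine 1.28 ± 0.28 (adjusted p = 0.001285). Without rat61 these were 0.80 and 0.59 and both passed, but neither did with only its 2 groups fitted (0.08047 and 0.1812). Galactosamine minus vehicle was 0.21 (adjusted p = 0.6233) at this time.

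After galactosamine alone S100a8 was called higher at 24 h and 48 h, and S100a9 at 24 h only. S100a8 was 3.16, 2.98 and 2.56 in combination livers and 3.06, 3.55 and 3.71 in galactosamine livers at 24 h, against 2.17 to 2.54 in vehicle livers. At 48 h it was 2.98, 2.80 and 4.02 in combination livers and 3.68 and 3.59 in galactosamine livers, against 2.41 to 2.56 in vehicle livers. Every treated liver at both times was above its vehicle livers. Galactosamine passed the test at 24 h (1.07 ± 0.28, adjusted p = 0.001387) and 48 h (1.17 ± 0.32, adjusted p = 0.003334), without each rat too. The combination gave 0.53 (adjusted p = 0.1503) at 24 h and 0.80 ± 0.28 (adjusted p = 0.04907) at 48 h. This last call is frail, as it held without 1 of 6 rats left out in turn and in 2 of 8 other settings, and the value was 0.42 (adjusted p = 0.3711) without rat72.

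S100a9 at 24 h was 4.99, 4.59 and 3.96 in combination livers and 4.18, 5.38 and 5.12 in galactosamine livers, against 3.85 on average (SD 0.29, n = 3) in vehicle livers. The galactosamine livers were above the vehicle livers and the combination livers overlapped them. Galactosamine gave 1.04 ± 0.34 (at least 1.44-fold, adjusted p = 0.008621), not called without rat23 (0.80, adjusted p = 0.06826) or with array weights (0.51, adjusted p = 0.07484). The combination gave 0.67 (adjusted p = 0.1313). At 48 h the signals were 3.45, 4.55 and 5.28 in combination livers and 4.16 and 4.69 in galactosamine livers, and neither differed from vehicle past the threshold. At 8 d galactosamine livers still had 4.79, 4.88 and 4.44, above vehicle livers with 4.17, 4.22 and 4.26, but the difference of 0.48 did not pass (adjusted p = 0.9497). Combination livers at 8 d had 4.07, 4.06 and 3.91 for S100a9 and 2.41, 2.43 and 2.31 for S100a8.

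**Figure D2:**
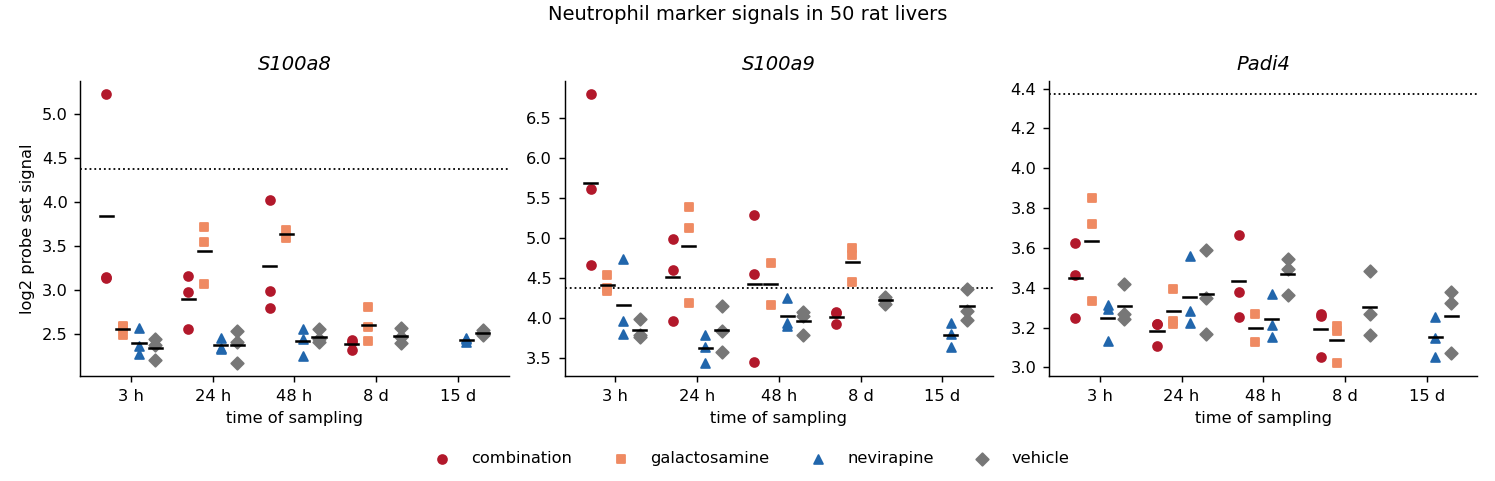
Log2 probe set signal of S100a8, S100a9 and Padi4 in each of 50 livers by time of sampling, with black bars for group means and a dotted line at the background level of 4.37 (each gene has its own axis). Rat61 of the combination at 3 h is the highest liver for S100a8 and S100a9, and every Padi4 value lies below the dotted line.

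Padi4, the citrullinating enzyme, was below background in all 50 rats, with signals of 3.02 to 3.85. At 3 h it was 3.25 to 3.63 in combination livers and 3.33, 3.85 and 3.72 in galactosamine livers, against 3.25, 3.27 and 3.42 in vehicle livers. The groups overlapped. The galactosamine difference of 0.32 ± 0.12 passed (adjusted p = 0.04188) but was lost without rat1 (0.1278), rat2 (0.1127), rat17 (0.2556) or rat18 (0.1379), after cyclic loess (0.05259) and in a fit of the 2 groups (0.1004). As both means are below background, no expression of Padi4 was shown in these livers.

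Against vehicle, 3 of the 5 genes were called higher at 3 h in combination livers (Cxcl1, S100a8 and S100a9), where 15.2% of all genes were called higher and 32.5% in either direction. In galactosamine livers 3 were called higher (Cxcl1, Cxcl2 and Padi4), where 14.9% of all genes were called higher and 32.9% in either direction. At 24 h limma called 0 of 5 in combination livers (36.7% of all genes) and 3 higher in galactosamine livers (Cxcl2, S100a8 and S100a9), where 30.2% of all genes were called higher and 58.8% in either direction. At 48 h S100a8 alone was called higher in both, in combination livers beside 10.2% of all genes higher (15.9% either way) and in galactosamine livers beside 24.9% (39.4% either way). At 8 d limma called 0 of 5 in combination livers (24.8% of all genes) and 0 of 5 in galactosamine livers (0.0352%). For each of these counts of 0, none of the 5 had an unadjusted p under 0.05.

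Between combination and galactosamine livers at 3 h 2 genes were called higher (S100a8 and S100a9, with 10.6% of all genes) and 1 lower (Cxcl2, with 7.06%), where 17.7% of all genes were called either way. At 24 h Cxcl2 was called lower (21.6% of all genes lower, 37.8% either way), and at 48 h limma called 0 of 5 (29.3%). At 8 d the difference between the effects on each treatment's own vehicle was called for 0 of 5 (11.2%), as were combination livers at 8 d minus nevirapine livers at 15 d (12.4%) and the departure of the combination from the sum of both drugs (2.82%). None of the 5 had an unadjusted p under 0.05 in these comparisons called for none. Between successive times in galactosamine livers 3 of 5 genes were called from 3 h to 24 h (68.2% of all genes), 1 from 24 h to 48 h (45.2%) and 1 from 48 h to 8 d (34.9%), the last being S100a8 (-1.04, adjusted p = 0.009669), lost without rat26 (0.0743). In combination livers 3 were called from 3 h to 24 h (41.2%), all lower, limma called 0 from 24 h to 48 h (28.5%, 0 at an unadjusted p under 0.05), and 1 from 48 h to 8 d (35.1%), again S100a8 (-0.88, adjusted p = 0.01476), lost without rat72 (0.1819). The falls of S100a8 (0.00706) and S100a9 (0.005076) in combination livers from 3 h to 24 h were lost without rat61 (adjusted p = 0.3732 for S100a8 and 0.1473 for S100a9) and without rat79 (0.05415 for S100a8 and 0.05671 for S100a9).

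**Figure D3:**
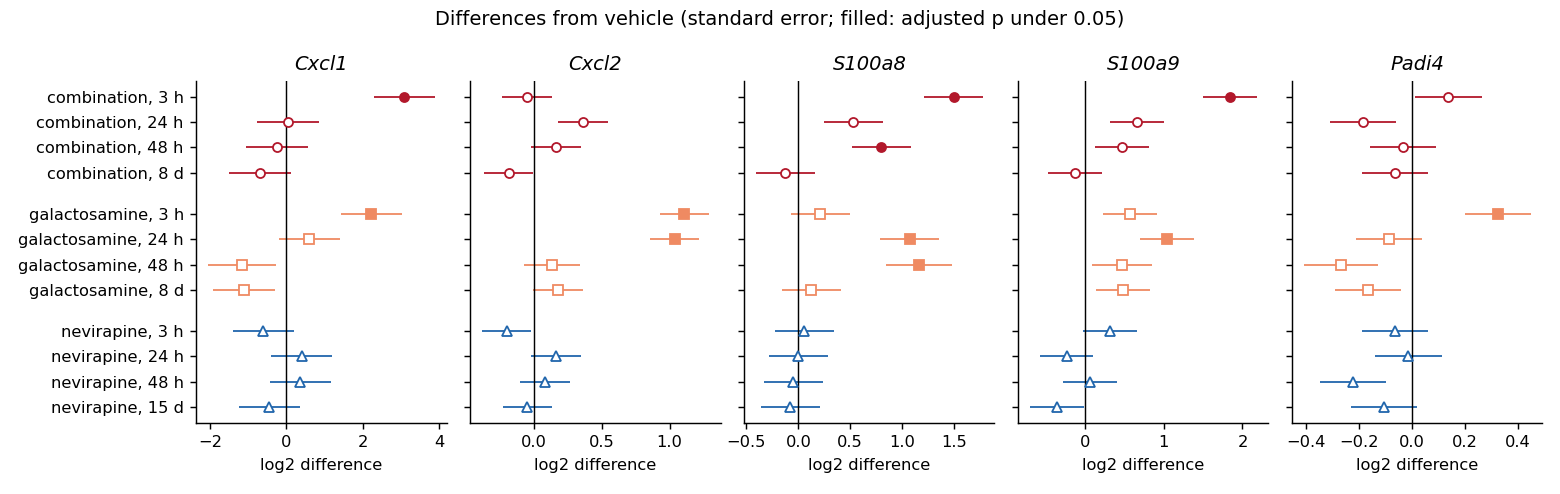
Log2 difference from vehicle for 12 treated groups, with bars of 1 standard error and filled symbols where the adjusted p was under 0.05 (combination at 8 d is against vehicle at 15 d, and each gene has its own axis). The filled points lie in the combination and galactosamine groups up to 48 h, and none is in a nevirapine group.

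Nevirapine alone gave no call by limma for any of the 5 genes at 3 h, 24 h, 48 h or 15 d, and none had an unadjusted p under 0.05, where 15.1%, 11.2%, 17.4% and 13.9% of all genes were called. Over the 12 nevirapine rats Cxcl1 ran from 4.72 to 7.71 (median 5.86), against 3.998 to 7.48 (median 6.52) in the 15 vehicle rats. Cxcl2 ran from 2.94 to 3.46, against 2.92 to 3.36 in vehicle rats, S100a8 from 2.25 to 2.56, against 2.17 to 2.57, and S100a9 from 3.44 to 4.73, against 3.57 to 4.36. The pooled ranges largely coincided. At 15 d S100a9 lay wholly below its vehicle rats (3.63 to 3.93 against 3.98 to 4.36), as did S100a8 at 15 d and Cxcl2 at 3 h. The S100a9 difference (-0.36, limma adjusted p = 0.5872) was called in a fit of those 2 groups alone (adjusted p = 0.04188). For Cxcl1 the interval is wide (difference -0.60 at 3 h, upper 95% bound 1.02), so a moderate difference was not detectable with 3 rats. No difference among vehicle livers over the 5 times was called for any of the 5 genes (adjusted p 0.595 to 0.977), where 29.6% of all genes were called. Cxcl1 was the most variable in them, with an SD of 1.80 at 3 h (n = 3) against 0.157 at 8 d (n = 3).

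The genes around these 5 were read from lists of markers and pathway members. Counts of called list genes at 3 h stand beside 15.2% of all genes called higher in combination livers and 14.9% in galactosamine livers. Called in either direction were 32.5% and 32.9%. The median log2 difference from vehicle at 3 h over all genes was -0.06 in combination livers and near 0 in galactosamine livers. In combination livers the median was 0.27 for the list of upstream cytokines, sensors and signalling genes, and 0.53 for adhesion molecules. It was -0.16 for other CXCR2 and platelet chemokines and 0.13 for other neutrophil genes. In galactosamine livers these lists had 0.30, 0.35, -0.11 and 0.19. For macrophage and monocyte markers it was 1.85 in combination livers and 1.07 in galactosamine livers. For T and NK cell markers it was 0.81 in combination livers and 0.26 in galactosamine livers, and for other S100 genes 0.11 in combination livers and 0.33 in galactosamine livers. Among other chemokines of the CXCR2 and platelet group, Cxcl3, Cxcl6, Ppbp and Pf4, limma called 0 of 4 higher at 3 h in combination and in galactosamine livers, and Cxcl6 and Ppbp were below background in every group. Ppbp, the platelet basic protein, was called lower in combination livers (3.75 against 4.16 in vehicle, difference -0.41, adjusted p = 0.02669). The receptors Cxcr1, Cxcr2 and Csf3r, which mature neutrophils carry, were below background in all 17 groups. C5ar1, a complement receptor of neutrophils and macrophages, rose 2.23-fold in combination livers (adjusted p = 0.0002074) and 1.72-fold in galactosamine livers (adjusted p = 0.00795) at 3 h. The upstream list of 13 measured genes held cytokines and sensors, and also Myd88, Nfkbia, Nfkb1 and S100a4, the last counted among the S100 genes too. Of the 13, 6 were called higher and 3 lower in combination livers at 3 h, and 5 higher and 1 lower in galactosamine livers. Il1b, an inducer of Cxcl1, rose 5.11-fold in combination livers (adjusted p = 2.641e-07) and 3.75-fold in galactosamine livers (adjusted p = 5.754e-06). Of 8 adhesion molecules of neutrophil entry 5 were called higher and 1 lower in combination livers, and 3 higher in galactosamine livers. Vcam1, which binds leukocytes on endothelium, rose 3.62-fold in combination livers (adjusted p = 1.248e-07) and 3.85-fold in galactosamine livers (adjusted p = 2.545e-08). Icam1, a ligand of leukocyte integrins, rose 7.75-fold in galactosamine livers at 24 h (adjusted p = 4.139e-12).

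Among markers of mature neutrophils other than the members, Lcn2 was bright and most of the rest were dim. The list asked for 23 genes, S100a8, S100a9 and Padi4 among them. Beside these members 8 were measured, and Camp, Mmp8, Mmp9, Np4 and Il1r2 were below background in all groups. The mean log2 signal of the 8 genes at 3 h lay between 4.44 and 4.64 in combination livers and 4.003 and 4.22 in galactosamine livers, against 3.91 and 3.96 in vehicle livers. In combination livers 2 of the 8 were called higher, and in galactosamine livers limma called 0. The first is Lcn2, a granule protein that injured liver also makes, at 10.31 ± 0.58 in combination livers and 6.30 ± 0.47 in galactosamine livers, against 6.20 ± 0.25 in vehicle livers (SD, n = 3 each). It was 17.3-fold higher in the combination than in vehicle (adjusted p = 0.003663) and 16.1-fold higher than in galactosamine livers (adjusted p = 0.008448). The second is Chi3l1, a chitinase-like protein of neutrophils and macrophages, which rose at least 1.025-fold (measured difference 0.70, adjusted p = 0.0006683). The other 6 genes differed from vehicle in combination livers by -0.13 (Camp) to 0.16 (Il1r2) and none was called, so Lcn2 supplies most of the shift in the list's mean. In combination livers the mean of the 8 genes was 4.54 at 3 h, 4.51 at 24 h and 4.54 at 48 h. At 24 h and 48 h it was 4.12 and 4.39 in galactosamine livers, against 3.91 and 4.18 in vehicle livers. At 24 h 1 of the 8 was called higher in combination livers and 1 lower in galactosamine livers, where 36.7% and 58.8% of all genes were called either way. At 48 h 1 was called higher in combination livers and 2 in galactosamine livers, where 10.2% and 24.9% of all genes were called higher. Among 5 measured subunits of the phagocyte NADPH oxidase, which neutrophils and macrophages share, 4 were called higher in combination livers at 3 h (median 1.76) and 3 in galactosamine livers (median 0.70). Cybb, its catalytic subunit, rose 5.32-fold in combination livers (adjusted p = 1.74e-08) and 2.35-fold in galactosamine livers (adjusted p = 0.0004657).

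Markers of other cell types were called at the same times. All 12 macrophage and monocyte markers were called higher in combination livers at 3 h and 11 of 12 in galactosamine livers. List means were 9.00 to 9.14 and 8.17 to 8.30, against 6.87 to 7.61 in vehicle livers at 3 h. Vehicle livers had 7.87 to 8.29 at 8 d, which overlaps galactosamine livers at 3 h, and 7.81 to 7.95 at 15 d. Ccr2 was below background in all groups. After nevirapine alone at 3 h 5 of 12 were called higher (median 0.72), where 15.1% of all genes were called either way. Cd68, a macrophage lysosomal protein, rose 4.03-fold in combination livers (adjusted p = 5.999e-07) and 2.02-fold in galactosamine livers (adjusted p = 0.003845). At 24 h 10 of the 12 were called higher in combination livers and 4 higher and 1 lower in galactosamine livers. Of all genes 36.7% were called either way in combination livers at 24 h, and 30.2% higher in galactosamine livers (58.8% either way). At 48 h 10 of the 12 were higher in combination livers, and 10 higher and 1 lower in galactosamine livers. Of all genes 10.2% were called higher in combination livers at 48 h (15.9% either way) and 24.9% in galactosamine livers (39.4% either way). Of 10 T and NK cell markers 8 were called higher in combination livers at 3 h (list means 4.72 to 5.06) and 2 in galactosamine livers (4.36 to 4.59), against 4.13 to 4.18 in vehicle livers. Of 6 endothelial markers 4 were called higher in combination livers at 3 h (median 0.48) and 6 in galactosamine livers (median 0.79). Their list means were 8.64 to 9.05 in combination livers and 9.18 in each galactosamine liver, against 8.19 to 8.57 in vehicle livers at 3 h. Vehicle livers at 8 d had 8.62 to 8.73. Between the treatments 2 of the 6 markers, Kdr and Ptprb, were called lower in combination livers at 3 h, where 7.06% of all genes were called lower. Of 10 hepatocyte markers 4 were called lower in combination livers at 3 h and 2 in galactosamine livers. Of all genes 32.5% and 32.9% were called there in either direction. These shares hold the 15.2% and 14.9% called higher, so they exceed the shares called lower alone. S100a8 and S100a9 are also made by monocytes and the chemokines by several liver cells, and the part of these cells in the results for the members was not tested. Among 10 other S100 genes 4 were called higher in combination livers at 3 h and 1 in galactosamine livers. S100a4, made by macrophages and fibroblasts, rose 2.15-fold in combination livers (adjusted p = 0.001458). S100a6, a relative found in many cell types, rose 3.06-fold (adjusted p = 0.006931). Of the 4 peptidylarginine deiminases, the family of Padi4, Padi2 was called lower in combination livers at 3 h (-0.39, adjusted p = 0.008591) and in galactosamine livers Padi4 alone was called.

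**Figure D4:**
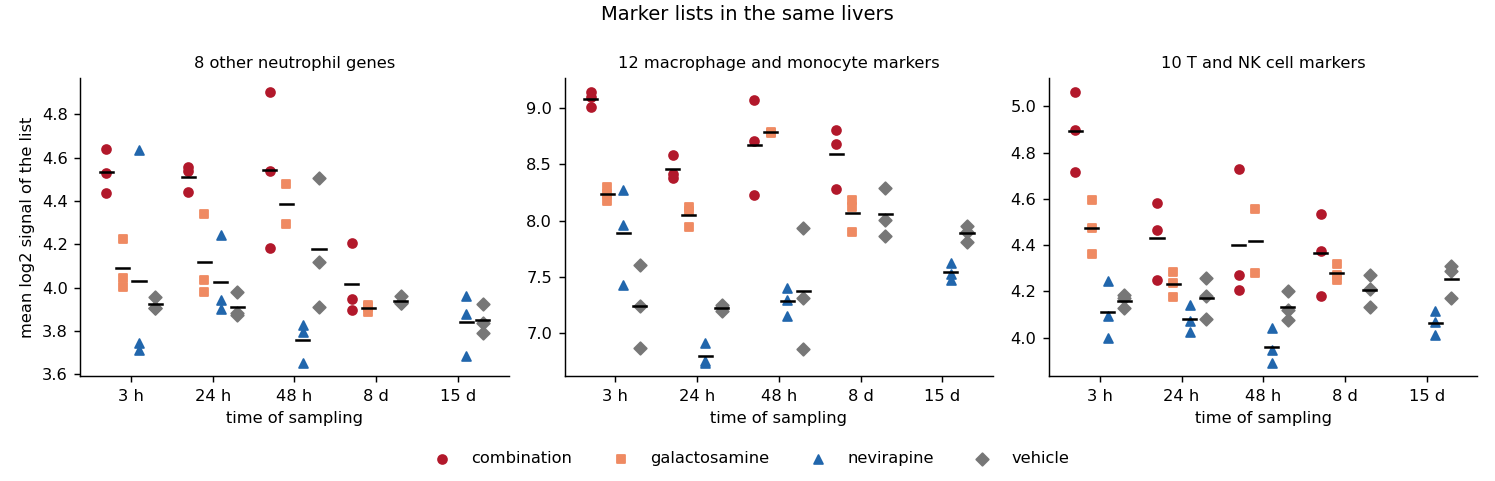
Mean log2 signal per liver of 8 neutrophil genes other than the members, 12 macrophage and monocyte markers and 10 T and NK cell markers, by time of sampling, with black bars for group means (each list has its own axis). Among the livers taken at 3 h, those of the combination lie highest in each panel, apart from 1 nevirapine liver among the neutrophil genes.

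Among the pairs of members with a value, the pattern over the 17 group means was closest for S100a8 and S100a9 (Pearson r = 0.81). No value was given for S100a8 with Padi4. Cxcl1 had 0.41 with Cxcl2, below its 0.69 with Padi4 and 0.56 with S100a9. These values describe 17 means of 2 or 3 rats that share arrays, and carry no test. Likeness was searched among 11525 genes with at least 1 group mean above background, without symbols that start with LOC or RGD. The pattern nearest to Cxcl1 belonged to Cenpj (0.84) and Ccl4 (0.84), a macrophage chemokine. Ccl4 was at 6.98 in combination livers and 7.65 in galactosamine livers at 3 h, against 5.34 in vehicle livers. The genes nearest to Cxcl2 were Tbca (0.84) and Xcl1 (0.83), and to Padi4 Hoxb7 (0.85). Those nearest to S100a8 were Gbp4 (0.91), an interferon-induced GTPase, and Psmb9 (0.91), a subunit of the immunoproteasome. S100a9 was nearest to Trim30d (0.89) and Chi3l1 (0.89). For the dim genes Cxcl2, S100a8 and Padi4 the order of groups below background is of measured signals only.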

How the data were processed

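The authors deposited log2 probe set signals of 50 arrays (31099 probe sets), made with RMA per the submitters' processing notes, which also name limma and give no version for either. They were used as deposited, without scaling or filter. Of the probe sets 20832 had 1 symbol, 6 of them controls that were left out, and the brightest on average stood for each of 14217 genes. Groups came from the sample labels. Limma 3.58.1 in R 4.3.3 fitted 17 group means to all arrays with eBayes and Benjamini-Hochberg adjustment, so the comparisons share 1 spread per gene, and was tested on simulated data. Comparisons with one vehicle group share its rats. Genes named beside the members came from listed markers and pathways, and the 5 genes with the most similar group means. The members and lists were chosen with earlier results of these data known. Alternatives were a trended robust prior, other normalization, array weights, a GAPDH covariate, other probe set and dim-probe choices, fits of single comparisons, and rats left out. The number of arrays limits precision. Figures were drawn with matplotlib 3.10.9.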

Additional observations from a re-analysis of the deposited data

Results flagged for a closer look

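The following differences stood out because the effect of a treatment on vehicle differed between treatments or between times by a test of that difference. At 3 h the effect of the combination minus that of galactosamine was -1.16 for Cxcl2 (limma adjusted p = 1.538e-05), 1.28 for S100a8 (adjusted p = 0.001285) and 1.27 for S100a9 (adjusted p = 0.007541), on the log2 scale. At 24 h it was -0.68 for Cxcl2 (adjusted p = 0.003002), with overlapping rats. Between 3 h and 24 h the effect of the combination on Cxcl1 changed by -3.05 (adjusted p = 0.0395), and that of galactosamine on Padi4 by -0.41 (adjusted p = 0.04926). The fall of Padi4 itself over that step (-0.35, adjusted p = 0.01281) was lost after cyclic loess (-0.15, adjusted p = 0.2756), in a fit of the 2 groups (0.07663) and without rat17 (0.1132) or rat18 (0.05436), with every group below background. Between 24 h and 48 h the effect of galactosamine on Cxcl2 changed by -0.91 (adjusted p = 0.007994). For Cxcl2 and S100a8 too, at least 1 group of each of these differences was below background.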

How the results depend on the processing

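Of 120 tested differences of the 5 genes 24 passed, and over 1724 recomputed values 1653 kept direction and side of the threshold, 54 lost the call, 17 gained one and none reversed. The 1724 values cover all 120 differences, and only those of the 24 that passed could lose a call. The 54 losses are therefore not to be read as a share of 1724. Counts of genes called changed as follows, and the cause was not tested. With only the groups of a comparison fitted, the count was 1 for combination against vehicle at 3 h, 0 at 48 h, 1 for combination against galactosamine at 3 h, 0 at 24 h and 1 at 8 d, 1 for galactosamine at 8 d, 1 for nevirapine at 15 d, 1 for combination at 24 h against 3 h, and 0 for galactosamine at 48 h against 24 h and combination at 8 d against 48 h. For galactosamine against vehicle at 3 h, the fit of only those groups lost Padi4 and gained S100a9. With differences of the effects on vehicle the count was 1 for both treatments at 24 h against 3 h and 0 for both at 8 d against 48 h. Array weights gave 2 for combination at 24 h, 0 at 48 h, 2 for galactosamine at 48 h and at 48 h against 24 h, and 1 for nevirapine at 48 h. Combination at 48 h had 0 with the GAPDH covariate, cyclic loess, the mean of all probe sets or a trended robust prior. Without rat63, rat70 and rat31, which stood apart in an earlier look, combination at 8 d against 48 h had 2. Leaving out 1 rat at a time, counts ranged from 1 to 3 for galactosamine at 3 h, from 0 to 1 for combination at 24 h and 48 h and for combination against galactosamine at 24 h, from 0 to 2 for combination at 8 d against 48 h, from 0 to 1 for galactosamine at 8 d against 48 h, and from 1 to 4 for combination and for galactosamine at 24 h against 3 h. The filter on dim genes removed all members but Cxcl1, so it gave no value for them. No paired analysis was possible because the rat numbers are unique. With 3 rats a group, signals below background limit Cxcl2, S100a8 and Padi4 most.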
